A study of Homo sapiens with 3 samples.

Results

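The genes examined were 10 secreted chemokines and cytokines whose transcription is known to depend on NF-kB, namely CXCL8, CXCL1, CXCL2, CXCL3, CXCL5, CCL2, CCL20, IL6, LIF and CSF1. They were taken by gene name from the 58735 genes of the deposited count data, and all 10 had a mean of at least 1 CPM, the count scaled to library size. RNA was taken from the human lung adenocarcinoma line A549, and 3 libraries were made, 1 per condition. Control-sh was the control, and DDX24-sh1 and DDX24-sh2 each carried a different shRNA against the RNA helicase DDX24. According to the study's methods, all lines were made stable by lentiviral infection and kept in puromycin. The methods name an empty pLKO.1 vector as control, whereas a figure legend names a control shRNA, and the labels do not say which one was sequenced.

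NF-kB dimers such as RELA with NFKB1 are held in the cytoplasm by inhibitors of the IkB family. The IKK complex, whose regulatory subunit is IKBKG, marks these inhibitors for degradation, and the freed dimers bind kB sites in promoters. Epithelial tumour cells use this route to make chemokines that draw neutrophils, monocytes and lymphocytes, together with cytokines of the IL-6 family. The study followed IKBKG splicing and NF-kB signalling after DDX24 knockdown, so the comparison addresses whether these target transcripts differed between the knockdown libraries and the control.

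Control-sh held 17218884 counts, DDX24-sh1 held 18337471 and DDX24-sh2 held 17847190, and where 3 values follow a gene they stand in this order. DDX24 itself had 2010, 637 and 765 counts, or 29.6% and 36.0% of the control level in the shRNA libraries. The names of the shRNA libraries were exchanged between the deposited counts and the deposited FPKM, because the FPKM, multiplied by gene length and divided by the count, was a constant within 1% for 100% of genes with at least 50 counts only when the labels were crossed. Which label is right is not known, and the names used here are those of the counts. The 6 epithelial markers summed to between 7705 and 7790 CPM, most of it KRT8 and KRT7, whereas the 7 immune markers summed to between 8.03 and 11.4 CPM with PTPRC, MS4A1 and CD3E at 0 counts in every library. Single markers differed from the control, with 1001, 2251 and 2728 counts for the keratin KRT19 (log2 ratios 1.07 and 1.36), 538, 358 and 261 for the cadherin CDH1 (-0.68 and -1.12) and 27, 80 and 68 for the fibroblast marker LUM (1.40 and 1.20), and their part in the cytokine values was not tested. The 5 fibroblast markers summed to between 11.0 and 14.8 CPM, and the 3 endothelial markers to between 0.499 and 0.765 CPM. Mitochondrial genes took 4.36%, 5.13% and 7.04% of the counts, and the part of this difference in the values that follow was not tested.

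Promoter sequences are shown first, since the comparison is about NF-kB targets and the kB site is where the factor binds. RefSeq promoters on GRCh38.p14, from 250 bases before to 50 bases after the RefSeq start, matched 7 of the 10 genes, and all 7 are shown; CCL2, LIF and CSF1 did not match, so promoters of the lower and the higher genes could not be compared. The RefSeq start is not always the outer end of the GENCODE 29 gene given further below. It coincides with it in CXCL1 and lies downstream of it by 63 bases in CXCL8, 98 in CXCL2, 102 in CXCL5, 118 in CXCL3, 1316 in IL6 and 8103 in CCL20, so some of the stretches lie inside the annotated gene. They read 5′ to 3′ on the strand of the gene, with 9 bases on each side of the match, and end before the RefSeq start. Capitals mark letters that match the NF-kB consensus on either strand or, in CXCL8, the run shared with the other CXC promoters.

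CXCL8 (chr4:73740469-73740495, plus strand): gcaaatcgtGGAATTTCCtctgacata
CXCL1 (chr4:73869305-73869333, plus strand): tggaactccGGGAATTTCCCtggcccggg
CXCL2 (chr4:74099254-74099282, minus strand): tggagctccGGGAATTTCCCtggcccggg
CXCL3 (chr4:74038749-74038777, minus strand): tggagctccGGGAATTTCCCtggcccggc
CXCL5 (chr4:73998749-73998777, minus strand): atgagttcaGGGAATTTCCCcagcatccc
CCL20 (chr2:227813754-227813781, plus strand): gatcaatggGGAAAACCCCatgtggcaa
IL6 (chr7:22727118-22727145, plus strand): atcaaatgtGGGATTTTCCcatgagtct

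The longest run of letters present in the promoters of all 5 CXC chemokines was GGAATTTCC. It began 91 bases before the RefSeq start of CXCL8, 90 before CXCL5, 78 before CXCL1 and CXCL3, and 77 before CXCL2, and 0.461% of 35116 promoters of the same length held it on either strand. The NF-kB consensus matched in 6 of the 7 promoters, all but CXCL8, and in 11.3% of all promoters. The pattern searched begins with GGG, and the run in CXCL8 begins with GG only. The missing match therefore does not mean that CXCL8 lacks a kB site. In CXCL1, CXCL2, CXCL3 and CXCL5 the consensus matched on both strands, shifted by 1 base and overlapping the shared run. IL6 carried the variant GGGATTTTCC and CCL20 the match GGGGTTTTCC on the opposite strand. AP-1, searched as TGANTCA on both strands, was found in CXCL8 only among the 7 promoters and in 7.71% of all promoters. The core of the cyclic AMP response element, TGACGT, was found in CXCL2 and IL6 and in 7.98% of all promoters. CXCL1 and CXCL3 were the most alike, with 82.5% of aligned positions identical over the whole window, and CXCL2 matched them at 71.9% and 73.8%. These matches describe letters in the promoter, and binding was not measured. The shares of all promoters are no test of the matches. The genes were taken as known NF-kB targets, several of the promoters are alike, and the run was defined by the CXC promoters themselves.

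Each knockdown library held fewer counts than the control for 8 of the 10 genes and more counts for CCL2 and CSF1. With the ratio to the control on the log2 scale, 6 genes were at least 2-fold lower in DDX24-sh1 (CXCL8, CXCL2, CXCL3, CXCL5, CCL20 and IL6), where 2.27% of the 13984 genes that reached 1 CPM on average were. In DDX24-sh2 the number was 7, the same genes and CXCL1, against 3.07% of all genes. At least 2-fold higher values were found for CSF1 in DDX24-sh1, where 2.32% of genes were, and for 0 of the 10 genes in DDX24-sh2, where 2.89% were. The median log2 ratio of the 10 genes was -1.46 in DDX24-sh1, with -1.90 in DDX24-sh2, and that of all genes was -0.02 and -0.03. Both comparisons use the same control library. The 10 genes were chosen with earlier results of these data known, so their counts and medians beside all genes are a description and not independent support. With 1 library per condition no test was run, and the intervals given below are exact 95% intervals from the counts, which cover counting error and not the variation between cultures. By that narrower measure 8 of the 10 genes were lower and 2 higher in each library. Passing it was common, since 29.5% of all genes were lower and 23.6% higher in DDX24-sh1, and 30.8% lower and 23.6% higher in DDX24-sh2. The 2 of 10 higher were near that share, and the 8 of 10 lower were above it, as a description only.

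**Figure D1:**
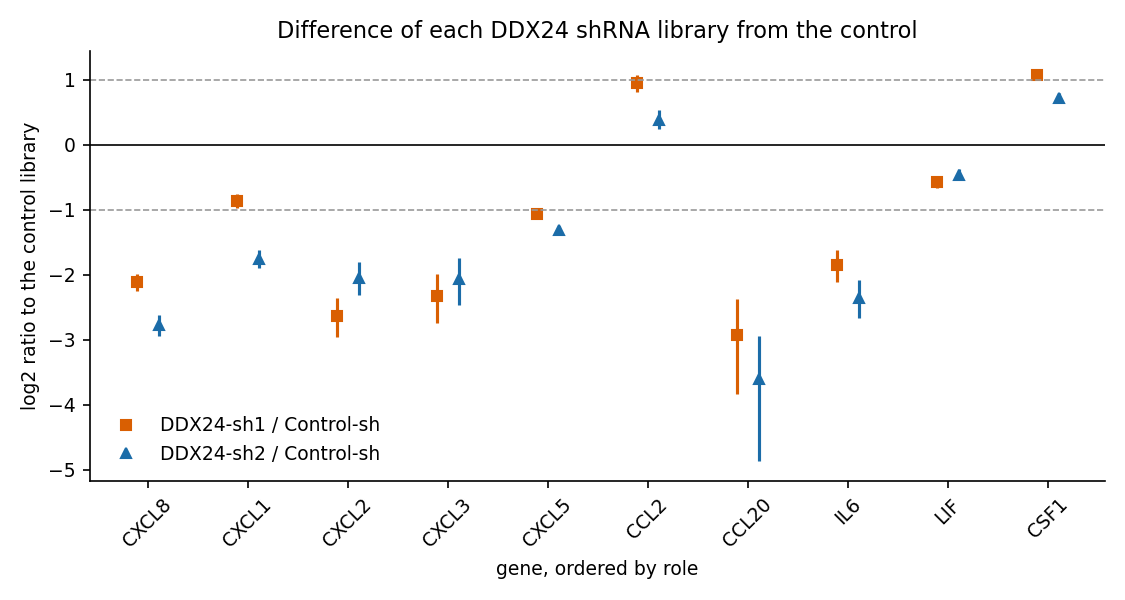
Log2 ratio of each DDX24 shRNA library to the control library for the 10 genes, with exact 95% counting intervals as vertical lines and dashed lines at 2-fold. CCL20 was lowest in both libraries, at -2.93 and -3.61, and CCL2 and CSF1 were the only genes above 0.

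CXCL8, CXCL1, CXCL2, CXCL3 and CXCL5 are CXC chemokines with an ELR motif, which attract neutrophils through the receptor CXCR2 and, for CXCL8, also CXCR1. Together they held 13869, 6286 and 4915 counts. The summed level was therefore 42.3% of the control in DDX24-sh1, and it was 33.5% in DDX24-sh2. All 5 lay below the control in both knockdown libraries, but by different amounts.

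CXCL8 (interleukin-8, ENSG00000169429) spans 73740506 to 73743716 on the plus strand of chromosome 4 (GRCh38). Its counts were 2311 in the control library, 572 with DDX24-sh1 and 355 with DDX24-sh2. The knockdown libraries stood well apart from the control, at 23.1% and 14.5% of its level. The log2 ratios were -2.11 (interval -2.25 to -1.98) for DDX24-sh1 and -2.78 (interval -2.95 to -2.62) for DDX24-sh2.

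CXCL1, CXCL2 and CXCL3 are close paralogues, known also as the GRO chemokines. CXCL1 (ENSG00000163739), on the plus strand of chromosome 4 from 73869393 to 73871242, had 1809, 1064 and 567 counts. Its log2 ratio of -0.86 (interval -0.98 to -0.76) in DDX24-sh1 did not reach 2-fold, and that of -1.75 (interval -1.89 to -1.62) in DDX24-sh2 did. CXCL2 (ENSG00000081041), on the minus strand from 74097035 to 74099293, had 657, 112 and 167 counts. In contrast to CXCL1 its lowest library was DDX24-sh1, with log2 ratios of -2.63 and -2.04 (intervals -2.95 to -2.36 and -2.31 to -1.81). CXCL3 (ENSG00000163734), on the minus strand from 74036589 to 74038807, had 340, 71 and 84 counts. Its log2 ratios of -2.33 and -2.07 (intervals -2.75 to -1.99 and -2.46 to -1.75) overlapped within counting error.

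Because the paralogues share sequence, their counts are not fully separate. Of the stretches of 50 bases in the annotated transcripts of CXCL2, 12.5% also occurred in another gene, CXCL3 or CXCL1. The shares were 6.01% for CXCL3 and 4.81% for CXCL1. CXCL5 shared no such stretch with a CXC chemokine and 1.12% with the unrelated gene GLYR1, and the share was 0% for each of the other 6 genes. How reads with several matches were counted is not given in the sources used here, and a transfer of reads between CXCL2 and CXCL3 could alter either ratio. All 3 paralogues were below the control in both libraries.

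CXCL5 (ENSG00000163735) spans 73995642 to 73998779 on the minus strand of the same chromosome. It was the best covered of the 10 genes in Control-sh, with 8752 counts there, 4467 for DDX24-sh1 and 3742 for DDX24-sh2. It lay nearer to the control than CXCL8 did, with log2 ratios of -1.07 and -1.31 (intervals -1.12 to -1.02 and -1.36 to -1.25). As a share of the summed RPKM of the 5 CXC chemokines, CXCL5 accounted for 53.4%, 59.9% and 66.5%. RPKM here is the CPM of the scaled library per kilobase of gene length. The share of CXCL8 was 15.8%, 8.56% and 7.04% in the same libraries. CXCL5 thus made up more of the summed level in both knockdown libraries than in the control, and CXCL8 less.

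All 5 CXC chemokine genes lie in a single cluster on chromosome 4, in which 16 genes are annotated over 359 kb from CXCL8 to CXCL2. The other 11 genes of the cluster had a mean under 1 CPM, and 8 of them had 0 counts in all libraries. CXCL6, another neutrophil chemokine, had 5, 0 and 3 counts, and PF4, platelet factor 4, had 7, 4 and 2. CXCL1 and CXCL5, in the middle of the cluster, had the ratios nearest to 0 in both libraries, and CXCL8, CXCL3 and CXCL2 at its sides had the lowest.

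The CC chemokines lay on opposite sides of the control. CCL20, the ligand of CCR6 on lymphocytes and dendritic cells (ENSG00000115009, plus strand of chromosome 2 from 227805739 to 227817564), had 148 counts in the control library but 19 with DDX24-sh1 and 11 with DDX24-sh2. It was the lowest of the 10 genes relative to the control, at 12.0% and 7.03% of its level. The small counts made these ratios the least precise, with log2 values of -2.93 and -3.61 (intervals -3.83 to -2.37 and -4.86 to -2.95).

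CCL2, or MCP-1, attracts monocytes through CCR2 (ENSG00000108691, plus strand of chromosome 17 from 34255218 to 34257203). Its counts were 666, 1371 and 920. Both knockdown libraries were above the control, by log2 ratios of 0.94 and 0.38 (intervals 0.81 to 1.08 and 0.24 to 0.53). Neither value reached 2-fold.

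IL6 and LIF are cytokines that signal through the shared receptor subunit gp130, the product of IL6ST. IL6 (ENSG00000136244), on the plus strand of chromosome 7 from 22725884 to 22732002, had 592, 175 and 121 counts. It stood at 27.6% and 19.3% of the control, with log2 ratios of -1.85 and -2.35 (intervals -2.11 to -1.61 and -2.67 to -2.09). Its start overlaps STEAP1B and AC073072.1 on the opposite strand, which had at most 10 and 1 counts in any library. LIF (ENSG00000128342), at 30240447 to 30246851 of chromosome 22 (minus strand), had 2479, 1779 and 1902 counts. Its log2 ratios were -0.58 and -0.46 (intervals -0.67 to -0.49 and -0.55 to -0.38), the ratios nearest to 0 among the 8 lower genes. LIF overlaps the antisense genes AC004264.1, with 32, 13 and 25 counts, and LIF-AS1, with 3, 2 and 2 counts.

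CSF1, the macrophage colony-stimulating factor (ENSG00000184371), lies on the plus strand of chromosome 1 from 109910242 to 109930992. Its counts were 2206 in the control library, 4961 with DDX24-sh1 and 3824 with DDX24-sh2. These were 210% and 164% of the control level, with log2 ratios of 1.07 and 0.71 (intervals 0.997 to 1.14 and 0.64 to 0.79). In both knockdown libraries CSF1 had more counts than any other of the 10 genes.

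Per kilobase, the order of the 10 genes in Control-sh was CXCL5 (202 RPKM), CXCL1 (81.8), CXCL8 (59.5), LIF (36.6), CXCL2 (25.7), CSF1 (23.9), CCL2 (19.6), IL6 (16.8), CXCL3 (8.98) and CCL20 (5.44). Among neighbours in this order, CXCL2 and CSF1 did not differ beyond counting error, with a ratio of 1.08 (interval 0.984 to 1.17). In DDX24-sh1 the order was CXCL5 (96.2 RPKM), CSF1 (50.1), CXCL1 (44.9), CCL2 (37.7), LIF (24.5), CXCL8 (13.8), IL6 (4.62), CXCL2 (4.08), CXCL3 (1.75) and CCL20 (0.652). There IL6 and CXCL2 did not differ beyond counting error. In DDX24-sh2 it was CXCL5 (81.7 RPKM), CSF1 (39.1), LIF (26.5), CCL2 (25.7), CXCL1 (24.2), CXCL8 (8.65), CXCL2 (6.17), IL6 (3.24), CXCL3 (2.097) and CCL20 (0.382). In that library LIF did not differ from CCL2, nor CCL2 from CXCL1, beyond counting error. CXCL5 stayed first and CCL20 last, CSF1 moved from rank 6 to rank 2 in both knockdown libraries, and CXCL8 moved from rank 3 to rank 6.

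**Figure D2:**
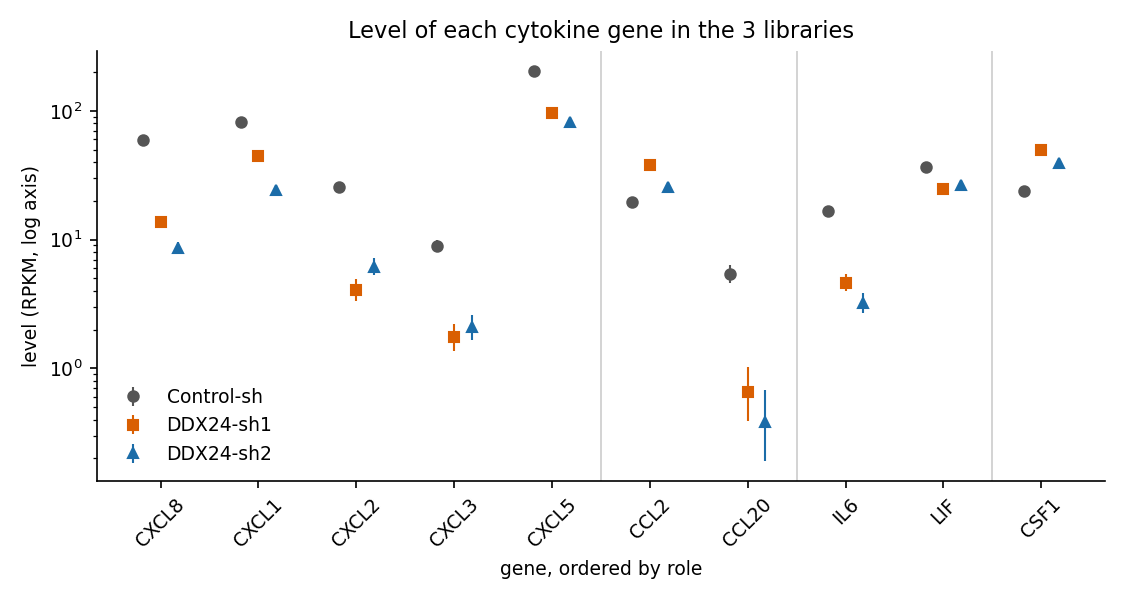
Level of the 10 genes in each library, in RPKM on a log axis, with exact 95% Poisson intervals as vertical lines and genes ordered by role from neutrophil chemokines to CSF1. The control points lie above both knockdown points for 8 genes and below them for CCL2 and CSF1.

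The shRNA libraries were also set against each other. DDX24-sh2 was below DDX24-sh1 beyond counting error for CXCL8, CXCL1, CXCL5, CCL2, IL6 and CSF1, which is 6 of the 10 genes, where 23.8% of all genes were. It was above DDX24-sh1 for CXCL2 and LIF, where 21.0% of all genes were. CXCL1 had the widest gap, with DDX24-sh2 at a log2 ratio to DDX24-sh1 of -0.89 (interval -1.04 to -0.74), and CXCL2 went the other way at 0.59 (interval 0.24 to 0.95). For CXCL3 the ratio was 0.25 (interval -0.21 to 0.74) and for CCL20 it was -0.67 (interval -1.99 to 0.38), so a difference was not detectable at this depth. None of the 10 genes differed 2-fold between the shRNA libraries, where 1.01% of all genes were 2-fold lower and 1.30% higher in DDX24-sh2, so a count of 0 of 10 is near the background. Their signs depend on which deposited label is right, since exchanging the labels turns each of them.

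Related gene lists were counted in the same way. Of 28 other chemokine ligands, 26 had a mean under 1 CPM and 15 had 0 counts in all libraries, among them CXCL9 and CXCL10. The 2 above that level, CXCL16 with 445, 500 and 335 counts and CCL26 with 84, 103 and 58, were within 2-fold of the control. Among 20 other cytokines, 8 had a mean of at least 1 CPM, and their medians were -0.56 in DDX24-sh1 and -0.53 in DDX24-sh2. IL11, a further cytokine that signals through gp130, had 1203, 268 and 267 counts, with log2 ratios of -2.26 and -2.24 (intervals -2.46 to -2.07 and -2.45 to -2.06). CSF3, the granulocyte colony-stimulating factor, had 41, 10 and 4 counts, and LTB, lymphotoxin beta, had 64, 49 and 12, and these genes were named after their values were seen. TNF had 5, 1 and 0 counts and IL1B 24, 14 and 14, both likewise chosen afterwards. Of these inducers of NF-kB, TNF was near the limit of 3 counts that a count of 0 allows.

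Receptors for most of the chemokines were not detected in these cells. CXCR2, CCR2 and CCR6 had 0 counts in every library, which allows up to 3 counts or 0.176 CPM in Control-sh, and CXCR1 had 1, 0 and 0. CSF1R had 4, 3 and 2 counts. The gp130 arm was present, with 4874, 3873 and 4229 counts for IL6ST, 609, 599 and 578 for LIFR and 168, 164 and 197 for IL6R. None of the 5 receptors of the list with a mean of at least 1 CPM differed 2-fold from the control. Of all genes, 2.27% and 3.07% were 2-fold lower and 2.32% and 2.89% higher, so 0 of 5 is near the background. Beyond counting error IL6ST (log2 ratios -0.43 and -0.29) and OSMR (-0.31 and -0.77) were lower and ACKR3 (0.59 and 0.87) was higher. By that measure 29.5% and 30.8% of all genes were lower, and 23.6% were higher in each library. Of the genes that respond to IL-6 and LIF, SOCS3, which limits gp130 signalling, had 1131, 921 and 812 counts, with log2 ratios of -0.40 and -0.56.

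The NF-kB machinery had ratios nearer to 0. All 24 genes of the list of subunits, IKK components and inhibitors passed 1 CPM, with a median log2 ratio of -0.25 in each knockdown library. At least 2-fold lower were 1 gene in DDX24-sh1 and 2 in DDX24-sh2, against 2.27% and 3.07% of all genes. Beyond counting error 14 were lower and 3 higher in each library. Of all genes, 29.5% and 30.8% were lower by that measure, and 23.6% were higher in each. RELB, the subunit of the non-canonical pathway, had 911, 468 and 486 counts (log2 ratios -1.06 and -0.98). TNFAIP3, or A20, a feedback inhibitor and itself a target gene, had 844, 574 and 416 (-0.65 and -1.10). NFKBIZ, which encodes a nuclear co-activator of IL6 transcription, had 529, 310 and 199 (-0.87 and -1.48). RELA had 2189, 1956 and 1779 counts, NFKB1 had 1124, 917 and 779, and IKBKG had 296, 268 and 279. Counts per gene do not separate the IKBKG splice forms that the study followed. BECN1, the autophagy gene that the study followed downstream of NF-kB, had 862, 879 and 850 counts, and its intervals of -0.21 to 0.07 and -0.24 to 0.04 included 0. In separate experiments after DDX24 knockdown, the study reported higher BECN1 mRNA by qRT-PCR and higher BECN1 promoter reporter activity. It also reported more phosphorylated p65, the RELA protein, by western blot. The reporter was measured in H1299, another lung cancer line, and not in A549. The cell line of the qRT-PCR and the blot is not named in the sources used here.

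Target genes of NF-kB that are not cytokines were also mostly below the control. Of 24 such genes 18 passed 1 CPM, with medians of -0.39 and -0.50, and 3 were at least 2-fold lower in DDX24-sh1 and 5 in DDX24-sh2, against 2.27% and 3.07% of all genes. Below 0 by any amount were 13 and 14 of the 18, where 7358 and 7412 of the 13984 genes that passed 1 CPM were. Beyond counting error 13 were lower in each library, and 4 and 3 were higher. By that measure 29.5% and 30.8% of all genes were lower, and 23.6% were higher in each library. The 13 of 18 lower were above that share and the 4 and 3 of 18 higher were not, as a description only. F3, or tissue factor, was the one gene at least 2-fold higher, in DDX24-sh1, with 35, 92 and 74 counts (log2 ratios 1.25 and 0.96). CFLAR, an inhibitor of caspase-8, had 1488, 2000 and 1857 (0.33 and 0.24), and both were named after their values were seen. ICAM1, an adhesion molecule for leukocytes, had 663, 251 and 99 counts (log2 ratios -1.49 and -2.80). PTGS2, the inducible cyclooxygenase, had 2162, 1030 and 406 (-1.17 and -2.49). SOD2, the mitochondrial superoxide dismutase, had 7076, 6574 and 3083 (-0.21 and -1.28), and GADD45B had 800, 442 and 376 (-0.95 and -1.17). The medians of the 10 cytokine genes lay further from 0 than those of this list, a difference that was not tested. Both the 10 genes and the list were chosen with earlier results of these data known.

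Other regulators of cytokine transcripts were counted beside them, and their part in the cytokine values was not tested. Of 11 AP-1, C/EBP and other inducible factors, 4 were at least 2-fold lower in DDX24-sh1 and 6 in DDX24-sh2. Of all genes, 2.27% and 3.07% were. FOS was at least 2-fold higher in DDX24-sh2, where 2.89% of all genes were. The medians of the 11 factors were -0.83 and -1.01. CEBPB, which binds the IL6 and CXCL8 promoters beside NF-kB, had 7518, 3640 and 3438 counts (log2 ratios -1.15 and -1.21). CEBPD had 958, 678 and 447 (-0.60 and -1.18), ATF3 had 457, 63 and 38 (-2.92 and -3.60), and EGR1 had 212, 35 and 66 (-2.63 and -1.73). A list of 12 genes linked to cytokine mRNA stability, made of RNA-binding proteins and members of the p38 pathway, had medians of -0.28 and -0.19. DUSP1, a phosphatase that limits p38 signalling, had 11509, 6102 and 6060 counts (-1.01 and -1.01) and was the only one of the 12 past 2-fold. Of all genes, 2.27% and 3.07% were at least 2-fold lower. ZFP36, or tristetraprolin, which binds AU-rich elements and destabilises many cytokine mRNAs, had 325, 380 and 516 counts. Its log2 ratios were 0.13 (interval -0.09 to 0.34) and 0.58 (interval 0.38 to 0.79), and the first interval included 0. ZFP36L1 (-0.65 and -0.63), ZFP36L2 (-0.42 and -0.63) and ZC3H12A (-0.27 and -0.76) were lower beyond counting error in each library. Of the 12 genes, 10 and 8 were lower by that measure, and 1 and 2 higher. Among all genes 29.5% and 30.8% were lower and 23.6% higher. ZFP36, ZFP36L1, ZFP36L2 and ZC3H12A were named after their values were seen.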

How the data were processed

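Counts per gene, whole numbers without normalization, were deposited by the authors for 3 libraries, with FPKM values per gene that the authors made from the same counts. Per the labels, TopHat2 2.0.9, Bowtie2 2.0.6, Cufflinks 2.1.1 and Cuffdiff 2.1.1 were used; their roles, the strandedness and the counting rule are not given in the sources used here. Gene models match GENCODE 29 on GRCh38.

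Library sizes were scaled by TMM in edgeR 4.0.16 (R 4.3.3), and log2 ratios were computed on CPM after adding a prior count of 2. No p-value was computed, since each condition has 1 library; treating the 2 shRNAs as replicates against 1 control was not done. Intervals are exact 95% conditional binomial (Clopper-Pearson) or Poisson intervals for counting error only, and PCR copies among the reads, which carry no molecular identifiers, are not separate molecules. Steps were tested on simulated data. The 10 genes and the related lists were chosen with earlier results of these data known. From each list, at most 4 genes were named that had a mean of at least 5 CPM and a 2-fold ratio in either library, by the mean of both ratios, along with the genes of the chemokine cluster, DDX24, IKBKG and BECN1, and the 5 genes nearest to CXCL8 and to CSF1; any other gene was chosen after its values were seen. Promoters are RefSeq's; the shared run was sought after the sequences were seen. Alternatives were DESeq2 1.42.0 size factors, total counts, a prior count of 0.5, log2(FPKM + 0.1) under either labelling, a 1.5-fold threshold, counting intervals in place of a fold, no filter and a mean of at least 10 CPM.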

Additional observations from a re-analysis of the deposited data

Results flagged for a closer look

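For 3 genes of the related lists the knockdown libraries lay on opposite sides of the control beyond counting error, a difference between the libraries that was not tested. NFKBIA, the IkB-alpha inhibitor of NF-kB, had 2741, 3903 and 2594 counts in Control-sh, then DDX24-sh1, then DDX24-sh2, and log2 ratios of 0.41 and -0.16. FOS, an immediate early AP-1 subunit, had 44, 25 and 243 counts and log2 ratios of -0.86 and 2.34. STAT3, the transcription factor downstream of gp130, had 8892 counts in DDX24-sh1 and 7117 and 7127 in Control-sh and DDX24-sh2, with log2 ratios of 0.22 and -0.0787. None of the 10 cytokine genes did so. The share of all genes on opposite sides of the control was not counted, so these numbers have no background beside them.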

How the results depend on the processing

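Under DESeq2 size factors, total counts and a prior count of 0.5, all 30 ratios of the 10 genes stayed within their counting intervals, with largest shifts of 0.0131, 0.029 and 0.165. The deposited FPKM with the shRNA labels exchanged left all 30 within them as well. With its labels as given, the medians were -1.89 (DDX24-sh1) and -1.44 (DDX24-sh2), and 0 and 1 genes were at least 2-fold higher. The direct ratio, DDX24-sh2 over DDX24-sh1, then turned, by the exchange itself, for CXCL8 (0.67), CXCL1 (0.89), CXCL2 (-0.58), CXCL3 (-0.24), CXCL5 (0.24), CCL2 (0.56), CCL20 (0.64), IL6 (0.50), LIF (-0.11), CSF1 (0.36) and their median (0.43, from -0.43).

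By construction, limits moved the counts. At 1.5-fold, 2 genes were higher for DDX24-sh1 and 1 for DDX24-sh2, and between the shRNA libraries 3 were lower and 1 higher in DDX24-sh2. By counting intervals these were 2 and 2, and 6 and 2. The share of all genes past 1.5-fold was not counted, so the 1.5-fold numbers have no background beside them. Over all genes, without a filter 1880 were 2-fold lower and 1672 higher for DDX24-sh1, 1764 and 2172 for DDX24-sh2, and 1017 and 1675 between the shRNA libraries. At 10 CPM they were 137 and 69, 197 and 77, and 21 and 21.

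No paired analysis was possible because each condition has 1 library. Depth limits CCL20, with 19 and 11 counts in the knockdown libraries. The state of the control culture and an effect of DDX24 knockdown cannot be told apart.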

Other observations

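The genes nearest to CXCL8 in their pair of log2 ratios, by Euclidean distance over the 2 comparisons, among 11101 genes averaging 5 CPM or more, were the nuclear receptor NR4A3 (distance 0.247; 318, 82 and 40 counts in Control-sh, then DDX24-sh1, then DDX24-sh2), OLR1 (0.392; 320, 86 and 62 counts), HERPUD1 (0.440; 6561, 1206 and 951 counts), PCK2 (0.488; 1075, 271 and 231 counts) and IL6. OLR1 encodes a receptor for oxidised LDL, HERPUD1 a protein of the endoplasmic reticulum that the unfolded protein response induces, and PCK2 the mitochondrial phosphoenolpyruvate carboxykinase. IL6 was the only other gene of the 10 among them.

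Nearest to CSF1 were IFIT1 (distance 0.0641; 78, 170 and 135 counts), an interferon-stimulated gene, IDI1 (0.0706; 1382, 3203 and 2491 counts), an enzyme of isoprenoid synthesis, NPTX1 (0.0776; 537, 1212 and 883 counts), the linker histone gene HIST1H1C (0.0869; 459, 1012 and 753 counts) and TNFSF9 (0.0947; 641, 1525 and 1073 counts), which encodes the 4-1BB ligand. CCL2, the other gene of the 10 above the control, was not among them.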
